A study of Mus musculus with 18 samples.

Results

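Keratins and vimentin are the main intermediate filament proteins of epithelial and mesenchymal cells, and their RNAs were followed across all libraries of 2 mouse pancreatic tumour lines. The 9 genes Krt7, Krt8, Krt18, Krt19, Krt20, Krt14, Krt17, Krt23 and Vim were taken by symbol from a table of 35642 genes, and all 9 had a row. Both lines, 1151 and 2838, came from KPCY mice, whose alleles include Trp53 LSL-R172H/+, Pdx1-Cre and R26 LSL-Yfp/LSL-Yfp, so that mutant Trp53 and a yellow fluorescent reporter are switched on in cells of the pancreatic lineage. Per the labels, 1151 had lost Mcu, the pore of the mitochondrial calcium uniporter, to Cre recombinase. Its 2 groups, both kept under puromycin, were cells with an empty vector (1151 KO, labelled knockout) and cells given MCU again (1151 MCU, labelled re-expressing). Line 2838 was measured as wild-type clones 15 and 22, labelled as carrying an empty vector, and as CRISPR knockout clones 17 and 42, for which no vector is named. All cells were untreated and grown in DMEM with serum. The 18 libraries formed 6 groups of 3.

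Levels were given in TPM, a measure of transcript abundance that is scaled to a fixed total and corrects for transcript length, so that genes can be set beside each other within a library. The unit does not keep read depth, so the depth behind each value was unknown. Line 1151 is labelled batch 1 and line 2838 batch 2. Line and batch cannot be told apart, and tests were made only within a line or on the difference of within-line effects. No pair of libraries was identical. Wild-type clone 22 replicate 3 stood apart, with the fewest genes at 1 TPM (10760, against up to 11507 elsewhere) and an upper quartile of 3.73 TPM, where replicates 1 and 2 had 7.54 and 7.45 TPM. The targeted gene did not follow all labels: Mcu was 15.0 ± 1.63 TPM in 1151 KO and 14.3 ± 1.06 TPM in 1151 MCU, and 75.2 ± 6.44, 83.3 ± 20.8, 119 ± 4.79 and 11.4 ± 0.888 TPM in clones 15, 22, 17 and 42 (SD, n = 3 each). Clone 17 is therefore called the clone labelled knockout, and all directions are those of the labels. Whether the 3 libraries of a group stem from independent cultures is not stated, so p-values may measure technical spread only.

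Keratin filaments are built from pairs of an acidic type I chain and a basic type II chain, and a chain without a partner is degraded. Krt8 (type II) and Krt18 (type I) form the basic pair of simple epithelia, to which Krt7 (type II) and Krt19 (type I) are added in ducts such as those of the pancreas. Krt20 is a type I keratin of the gut lining, Krt14 that of basal cells in stratified epithelia, Krt17 that of skin appendages and stressed epithelium, and Krt23 a small type I keratin known from digestive tumours. Vimentin, a type III protein, forms filaments of its own in mesenchymal cells and is a standard readout of epithelial-mesenchymal transition, the process that the series title refers to as epithelial cell plasticity. The type I genes lie on mouse chromosome 11 and the type II genes on chromosome 15, where Krt18 is the type I exception, next to its partner Krt8. In mm10 the genes span, on chromosome 11 and the minus strand, 99428403 to 99438150 (Krt20), 99477974 to 99493137 (Krt23), 100140810 to 100148665 (Krt19), 100203162 to 100207548 (Krt14) and 100256217 to 100261029 (Krt17). On chromosome 15 they span 101411043 to 101430313 (Krt7, plus strand), 101996698 to 102004482 (Krt8, minus) and 102028180 to 102032027 (Krt18, plus), and Vim lies on chromosome 2 at 13573927 to 13582826 (plus).

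Among the cell types whose markers were read, duct cells had the fullest set. Of 6 duct markers, Krt19 among them, 5 or 6 reached a mean of 1 TPM in each group, although Epcam, an epithelial adhesion protein, was at most 1.33 TPM in any group. None of 7 fibroblast markers did so in any group, their summed level was 0.203 to 0.914 TPM over the 18 libraries, and Lum was listed at 0 in all of them. Vimentin RNA was therefore measured in libraries in which the fibroblast markers were nearly absent. The T cell marker Cd3e was also at 0 throughout. Of 6 acinar markers, 0 reached a mean of 1 TPM in 1151 and 1, Cela1, in 2838. Of 5 endocrine markers 0 did so, and of 6 immune markers 1, Cd68. In bulk RNA, fewer cells of a kind and less RNA per cell cannot be told apart.

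Regulatory sequence is shown for 4 of the genes, pairs of neighbours picked with these results known. Krt20 and Krt23, 39.8 kb apart, were both nearly silent in 1151 and active in 2838. Krt8 and Krt18, 23.7 kb apart, changed in opposite directions in 1151. A part of position or sequence in these levels was not tested. The stretches lie in the 250 bases before the RefSeq start of each gene (GRCm38.p6, the build also called mm10), without bases that an annotated exon covers, and are written 5′ to 3′ on the gene's strand. Capitals mark a TATA box (TATAAA) or a CAGGTG element (here as its reverse CACCTG), the sequence bound by zinc-finger factors of the SNAIL and ZEB families. They are, in order, chr11:99438154-99438403 (minus strand), chr11:99493138-99493370 (minus), chr15:102004483-102004592 (minus) and chr15:102027966-102028179 (plus).
Krt20: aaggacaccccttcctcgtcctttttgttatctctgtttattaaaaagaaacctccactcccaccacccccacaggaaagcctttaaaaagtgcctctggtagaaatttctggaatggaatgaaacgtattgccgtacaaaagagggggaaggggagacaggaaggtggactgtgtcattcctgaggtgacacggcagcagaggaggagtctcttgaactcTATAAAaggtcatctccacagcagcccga
Krt23: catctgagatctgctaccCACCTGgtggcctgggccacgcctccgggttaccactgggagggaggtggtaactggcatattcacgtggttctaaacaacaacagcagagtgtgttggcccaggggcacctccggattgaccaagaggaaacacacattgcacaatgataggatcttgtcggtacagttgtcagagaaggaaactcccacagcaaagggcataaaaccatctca
Krt8: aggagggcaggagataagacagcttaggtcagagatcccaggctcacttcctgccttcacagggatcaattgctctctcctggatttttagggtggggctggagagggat
Krt18: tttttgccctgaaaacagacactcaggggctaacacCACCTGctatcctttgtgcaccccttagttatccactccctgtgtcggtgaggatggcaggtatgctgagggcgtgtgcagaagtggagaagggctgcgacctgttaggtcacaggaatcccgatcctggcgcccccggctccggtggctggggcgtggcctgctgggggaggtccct

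The TATA box of Krt20 began 29 bases before the start, and Vim held this motif at 32 bases before its start. On either strand, 12.4% of 32851 promoters held it in the same 250 bases. CAGGTG, on either strand, was found at 232 bases before the start in Krt23, 214 in Krt18, 111 in Krt8 (past the end of the stretch printed) and 44 in Krt7, against 17.2% of all promoters. The GC box GGGCGG, on either strand, occurred 4 times in Krt7 and was present, in any number, in 32.7% of promoters. In Krt7 the stretch ahead of annotated exon bases ended 169 bases before the start. Its GC boxes and CAGGTG lay past that point. Vim had no such stretch, so its TATA box lay past it too. The AP-1 site TGANTCA, on either strand, matched the 250 bases of none of the 7 genes that had a promoter entry, and those of 6.75% of promoters. For Krt7, Krt14 (chr11:100206031-100206280, minus strand) and Vim, the 250 bases lay inside the annotated gene span. Sequence before the 5′ end of those spans was not read. A match describes letters only and says nothing of whether a factor binds there.

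The simple-epithelial pair Krt8 and Krt18, the ductal Krt19 and vimentin were abundant in every library, and Krt20, Krt23 and Krt14 differed by line. Krt7 was 32.1 to 279 TPM in 1151 and 172 to 550 TPM in 2838. Krt8, Krt18, Krt19 and Vim were each above 100 TPM in all 18 libraries. By TPM, Krt8 ranked between 45 and 101 among the genes of a library, Krt18 between 40 and 96, and Vim between 54 and 106. All keratins together made up 0.431% to 0.689% of a library's TPM, and Vim 0.148% to 0.234%. The plot of levels by library shows the 9 genes side by side.

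**Figure D1:**
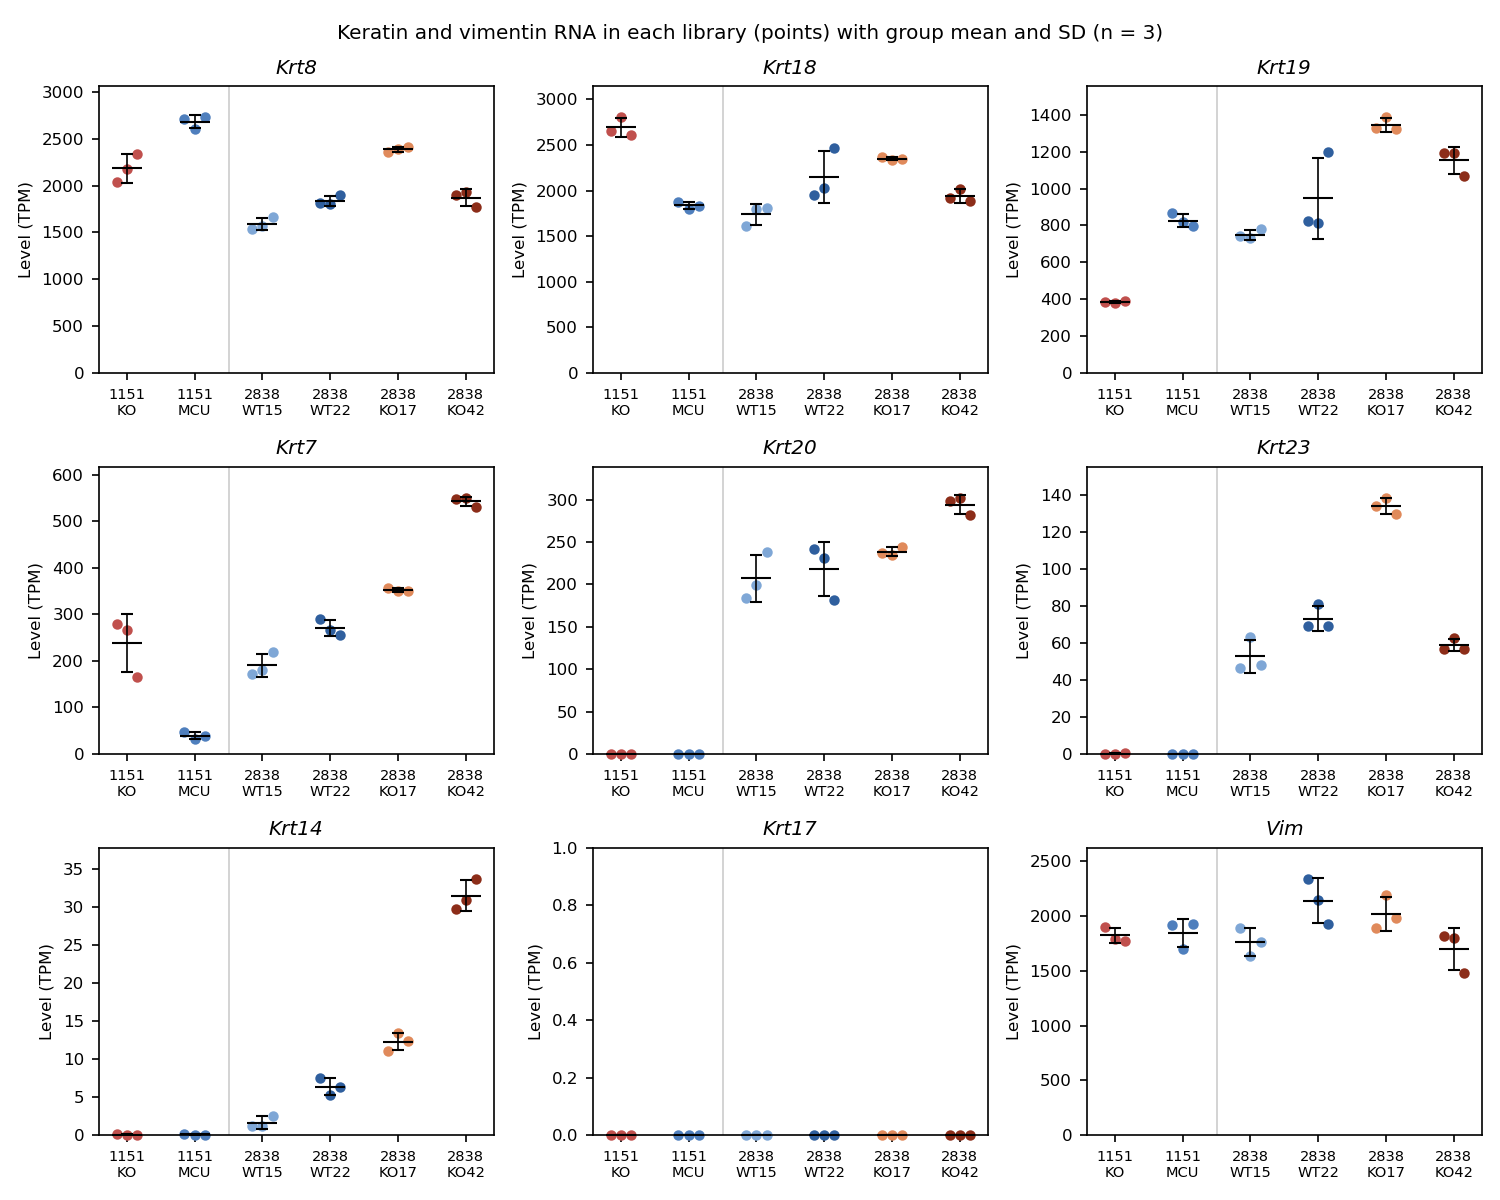
Levels of the 9 genes in TPM (vertical axes, linear and starting at 0) in the 6 groups (horizontal axes); points are libraries, bars the group mean and SD (n = 3), and the grey line separates the lines. Krt20, Krt23 and Krt14 lie near 0 in 1151 and above it in 2838, Krt17 is at 0 everywhere, and Vim stays between 1483 and 2342 TPM.

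Krt20, Krt23 and Krt14 differed between the lines. In 1151, Krt20 was 0.0317 to 0.537 TPM over the 6 libraries, Krt23 0.0786 to 0.321 TPM and Krt14 0 to 0.144 TPM. In 2838 the same genes reached 181 to 302 TPM for Krt20, 46.7 to 139 TPM for Krt23 and 1.13 to 33.8 TPM for Krt14 over 12 libraries. The ranges of the lines did not overlap for any of these 3 genes, with line and batch confounded. The share of all genes without such overlap was not counted, so the gap is not shown to be particular to these keratins. By TPM, Krt20 stood between ranks 460 and 741 in 2838 libraries. Krt17 was listed at 0 in all 18 libraries, as were 14884 of the 35642 genes. Of the 31-base words in its annotated transcripts, 84.2% occur in no other gene, so near-identical sequence covers a minor part of it.

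Few other keratins were measured. The table held 54 keratin rows, and of the 46 beyond the 8 keratins above, 42 stayed below a group mean of 1 TPM in every group and 17 were at 0 in all 18 libraries. The usual type II partner of Krt14 in basal cells, Krt5, named here for that role, was at most 0.0435 TPM in any library. The 4 that reached 1 TPM were Krt80, an epithelial type II keratin, Krt79, a type II keratin of skin glands and hair follicles, Krt10, the type I keratin of differentiating epidermis, and Krt13, that of internal stratified epithelia. The highest group means were 46.8 TPM for Krt80 (1151 KO), 7.04 TPM for Krt79 (clone 42), 6.97 TPM for Krt10 (1151 KO) and 1.06 TPM for Krt13 (clone 42).

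In line 1151, Krt7 and Krt18 were higher and Krt19 and Krt8 lower in the cells labelled knockout than in the re-expressing cells, while vimentin did not pass the test. Krt7 changed most. The question set by the design is how these cells differ with and without MCU put back. Calls required an adjusted p below 0.05 (limma on log2(TPM + 1), Benjamini-Hochberg over all genes tested, genes at 1 TPM in at least 3 libraries of the fit), and differences are on that log2 scale. Of the 9 genes, 5 could be tested, since Krt20, Krt14, Krt17 and Krt23 were too low in 1151 to enter the fit. Of these 5, 2 were called higher and 2 lower. In this comparison 61% of all 11630 genes tested were called, 34% higher and 27% lower, so 4 of 5 is not set apart from the table as a whole. The median difference was -0.02 over the 5 genes and 0.05 over all genes tested.

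Krt7, the type II keratin added in ductal cells, was 279, 267 and 166 TPM in 1151 KO and 46.7, 32.1 and 38.6 TPM in 1151 MCU. Every library of the first group was above every library of the other, and replicate 3 of 1151 KO was the lowest of its group. The group means differed 6.06-fold (log2 difference 2.55, SE 0.22, limma adjusted p = 8.60e-05). By rank, Krt7 moved from between 3034 and 4121 in 1151 MCU to between 468 and 831 in 1151 KO. Without the low replicate 3 the log2 difference was 2.79.

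Krt8 and Krt18, which pair with each other, moved apart. Krt18 was 2658, 2809.8 and 2614 TPM in 1151 KO and 1878, 1799 and 1835 TPM in 1151 MCU, with no overlap, and it rose by 0.55 on the log2 scale (SE 0.07, limma adjusted p = 4.46e-04). Krt8 was 2035, 2175 and 2340.3 TPM in 1151 KO and 2709, 2605 and 2734 TPM in 1151 MCU, also without overlap. Its difference was -0.30 (SE 0.08, limma adjusted p = 0.0144), the smallest of the 4 called. That call was lost without re-expressing replicate 1 (adjusted p = 0.0574) or replicate 3 (adjusted p = 0.0597). Both genes share transcript sequence with other genes, Krt8 for 32.3% of its 31-base words and Krt18 for 11.4%. The genes that share most, Krt8-ps and Gm5200, were listed at no more than 0.701 TPM and at 0, so little of the RNA was assigned to them.

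Krt19, the type I keratin of ducts, was 386, 379.9 and 389 TPM in 1151 KO and 866, 816 and 795 TPM in 1151 MCU. The groups lay far apart and the 3 libraries of 1151 KO were nearly equal. The mean was 2.14-fold lower in 1151 KO (95% interval of the log2 difference -1.23 to -0.96). Vim was 1904, 1793 and 1776 TPM in 1151 KO and 1918, 1698 and 1924 TPM in 1151 MCU. Those groups overlapped, and the 95% interval of the difference in Vim, -0.20 to 0.17 on the log2 scale, holds changes of either sign. A miss of the threshold does not show that vimentin was the same.

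The make-up of the keratin pool shifted with these changes. Krt18 formed 87.3 ± 0.540% of all type I keratin TPM in 1151 KO and 68.8 ± 0.663% in 1151 MCU, and Krt19 12.5 ± 0.541% and 30.9 ± 0.701% (SD, n = 3 each). The Krt8 to Krt18 ratio was 0.812 ± 0.0726 in 1151 KO and 1.46 ± 0.0262 in 1151 MCU. So Krt18 RNA exceeded Krt8 RNA in 1151 KO and the reverse held in 1151 MCU, as the plot of Krt8 against Krt18 shows. Summed over all rows of each type, type II to type I keratin was 0.801 ± 0.0423 and 1.02 ± 0.0275. The total keratin share of TPM was 0.556 ± 0.0138% and 0.541 ± 0.0124%, with overlapping libraries, so the larger shifts were within the pool. These ratios are descriptions and were not tested.

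**Figure D2:**
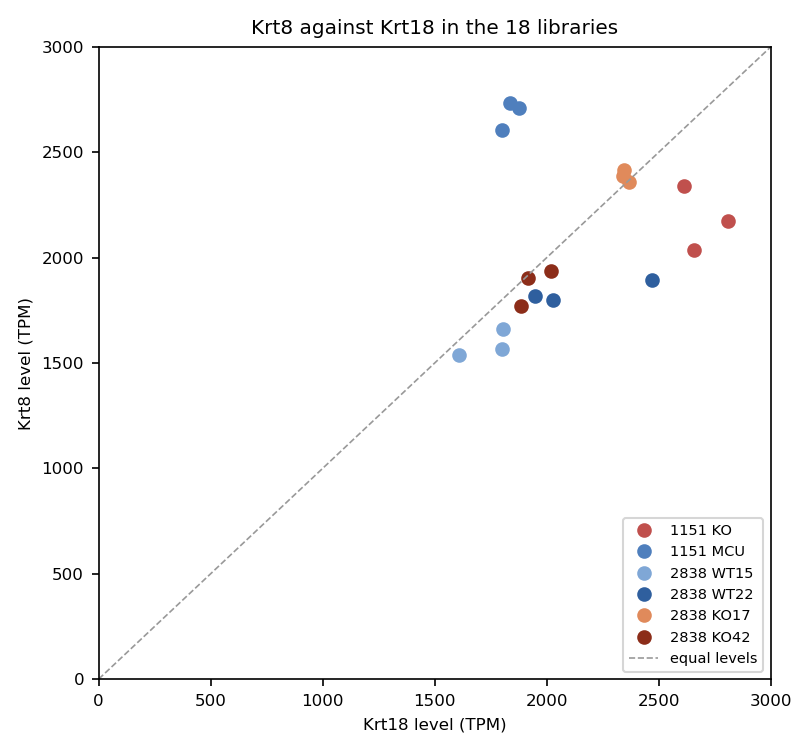
Krt8 level (vertical axis, TPM) against Krt18 level (horizontal axis, TPM), with a point for each of the 18 libraries and a dashed line at equal levels. The 3 libraries of 1151 MCU lie well above the line, with ratios of 1.44 to 1.49, and those of 1151 KO below it, with ratios of 0.766 to 0.895.

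Among the other keratins, Krt80 was 44.8, 47.8 and 47.7 TPM in 1151 KO and 7.44, 7.38 and 7.21 TPM in 1151 MCU (log2 difference 2.52, limma adjusted p = 4.17e-07). It rose 6.37-fold with no overlap, a ratio of means near that of Krt7, also a type II keratin called higher. Of the 3 other keratins tested in 1151, Krt79 also passed (0.51, limma adjusted p = 0.0283), and Krt10 did not (0.30, limma adjusted p = 0.217).

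Mesothelial cells also make keratins together with vimentin, and their markers moved with this comparison. Of 4 mesothelial markers, 3 reached 1 TPM in 1151 KO and 1 in 1151 MCU. Their summed level was 687 to 765 TPM and 534 to 544 TPM, nearly all from Msln, mesothelin, which pancreatic tumour cells also make. Wt1, a defining factor of that cell type, was 5.69 TPM on average in 1151 KO and listed at 0 in 1151 MCU. Endothelial markers summed to 8.32 to 8.77 TPM in 1151 KO and 5.60 to 6.10 TPM in 1151 MCU, a sum of markers that went opposite ways. Kdr averaged 8.51 TPM in 1151 KO and 0.767 TPM in 1151 MCU. Cdh5 averaged 0.00568 and 4.92 TPM. Their part in the keratin differences was not tested.

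In line 2838, Krt7 and Krt14 were higher in both clones labelled knockout than in both wild-type clones, in every library. The share of all genes whose libraries separate by label in this way was not counted, so the separation is not shown to be particular to them. The comparison asks what differs with the loss of Mcu, and each clone carries its own history besides its label. With the clone as the unit, 2 clones against 2, none of the 8 genes tested was called. Of all 11795 genes 0.0763% were called, and 662 had an unadjusted limma p under 0.05. All 8 were at 1 TPM or more in all 12 libraries, and Krt17, at 0, was not tested. On clone means 7 of the 8 differences were positive, with a median of 0.42 against 0.07 over all genes. The largest were Krt14 at 2.26 (SE 0.53, limma adjusted p = 0.29) and Krt7 at 0.95 (SE 0.26, limma adjusted p = 0.516). At an unadjusted p under 0.05, 3 of the 8 passed, Krt14, Krt7 and Krt19 (0.00186, 0.0054 and 0.0262 by limma).

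Clones were then set against each other in a fit of all 12 libraries, whose p-values speak of these clones as cultured and not of the genotype. Asking for the same sign and an adjusted p under 0.05 in all 4 pairs of a knockout and a wild-type clone left 2 of the 8 genes, Krt7 and Krt14, both higher. Over all genes 1.01% met that rule, 0.492% higher and 0.517% lower. The number depended on single libraries. It was 0 without any library of clone 17 or clone 42 or without clone 22 replicate 2, and 1 (Krt14) without clone 15 replicate 2 or clone 22 replicate 1. Without clone 22 replicate 3, the library that stood apart, it was 3, with Krt19 added. In that setting more genes of the whole table were under an unadjusted limma p of 0.05 in each of the 4 pairs. For clone 17 against clone 15 their number rose from 2802 to 5130. Calls gained without that library thus came with more low p-values over all genes. For Krt7 and Krt14 the highest adjusted p of the 4 pairs was that of clone 17 against clone 22.

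**Figure D3:**
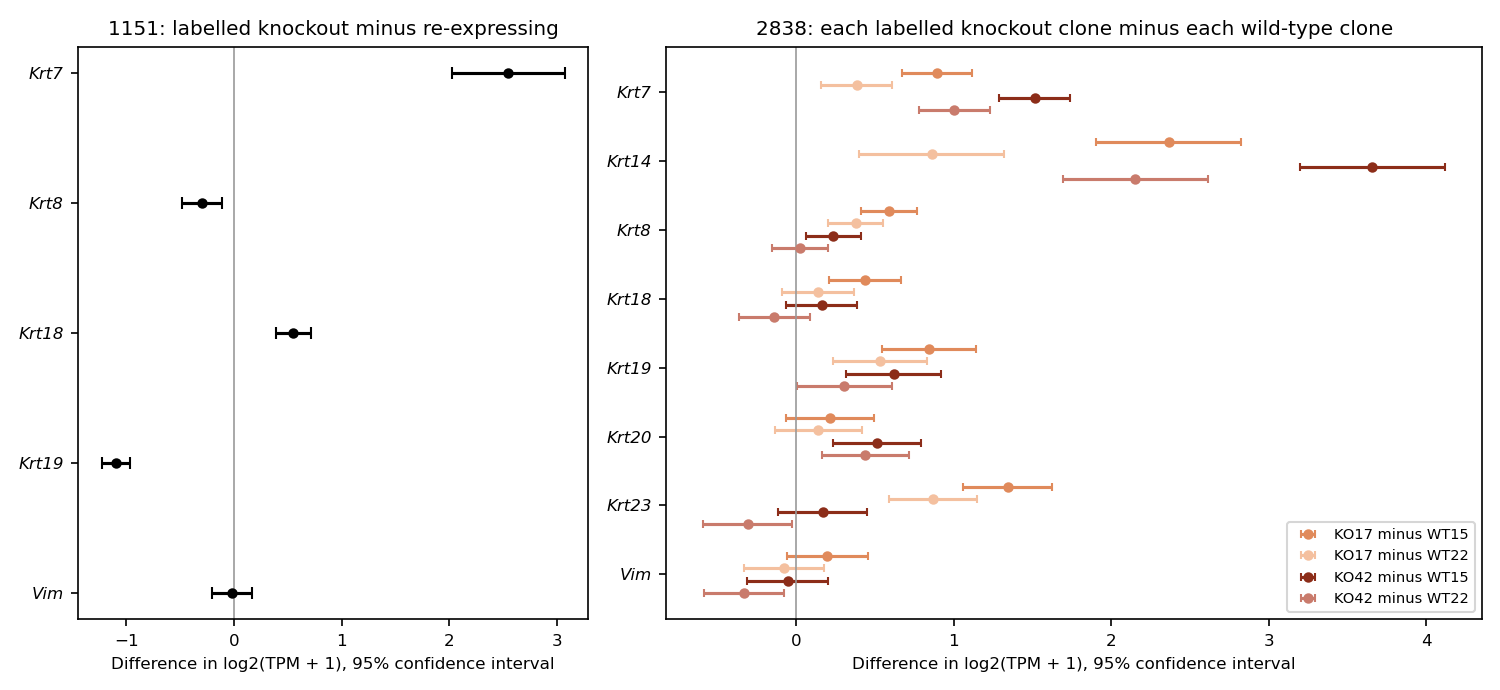
Differences in log2(TPM + 1) (horizontal axes) with 95% confidence intervals from limma, for 1151 KO minus 1151 MCU (left, 5 genes tested) and for each clone labelled knockout minus each wild-type clone of 2838 (right, 8 genes tested). On the right all 4 intervals of Krt7, of Krt14 and of Krt19 lie above 0, whereas those of Krt23 lie above 0 for clone 17 only. For Krt19 the interval of clone 42 against clone 22 starts at 0.00652.

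Krt14, the basal type I keratin, was 1.13, 1.23 and 2.57 TPM in clone 15 and 7.46, 5.23 and 6.38 TPM in clone 22. It was 11.1, 13.4 and 12.3 TPM in clone 17 and 29.8, 30.9 and 33.8 TPM in clone 42. The 4 clones did not overlap, in the order 15, 22, 17, 42, and the mean of clone 42 was 19.2-fold that of clone 15 and 4.96-fold that of clone 22. Clone 17 exceeded clone 22 by 0.86 on the log2 scale (limma adjusted p = 0.0336), a call lost with median-of-ratios scaling (0.0781), quantile normalization (0.134), no filter (0.0555) or a pseudocount of 0.1 (0.0669). It was also lost without any library of clones 17 and 42 or without clone 22 replicate 2 (0.0547 to 0.144). The wild-type clones differed by 1.51 (limma adjusted p = 0.005), a larger step than that from clone 22 to clone 17, with no test of the difference between the steps. Krt14 shares 28.2% of its 31-base words with other genes, mainly Krt16, which was at most 0.644 TPM, and Krt17, at 0.

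Krt7 was 172, 180.2 and 219 TPM in clone 15 and 291, 266 and 255 TPM in clone 22. It was 357, 351 and 350.4 TPM in clone 17 and 547, 550.4 and 531 TPM in clone 42. The order of clones was that of Krt14, again with no overlap between neighbours. From clone 15 to clone 42 the means rose 2.85-fold (1.51 on the log2 scale, limma adjusted p = 7.15e-06). Clone 17 against clone 22 gave 0.38 (limma adjusted p = 0.0491), at the edge of the threshold, and with median-of-ratios scaling 0.21 (adjusted p = 0.428). The call was also lost with a pseudocount of 0.1, no filter, a mean of at least 5 TPM or no trend (0.0503 to 0.0941), without any library of clones 17 and 42, and without clone 15 replicate 2 or clone 22 replicate 1 or 2 (0.0555 to 0.168). Over all genes the median difference of clones 17 and 42 from clone 22 was 0.15 for each, and -0.04 for each without clone 22 replicate 3. Beside these, Mcu RNA was highest in clone 17 and lowest in clone 42, while Krt7 and Krt14 were high in both.

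Mesothelial markers summed to 1349 to 1830 TPM in clone 42 against 351 to 538 TPM over the other 3 clones, from Msln in nearly all. In clone 17 they were 496 to 538 TPM, overlapping clone 22 at 351 to 522 TPM. Only 1 of the 4 markers reached 1 TPM in any 2838 group. Their part in the levels of Krt7 and Krt14 was not tested.

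Krt23 and Krt8 were highest in clone 17. Krt23 was 46.7, 63.2 and 48.4 TPM in clone 15, 69.4, 81.0 and 69.2 TPM in clone 22, 134, 139 and 129.9 TPM in clone 17 and 56.8, 62.8 and 57.0 TPM in clone 42. Clone 17 stood above the other 3 clones, while clone 42 overlapped clone 15 and lay below clone 22. Against clones 15 and 22, clone 17 was higher by 1.34 and 0.87 on the log2 scale (limma adjusted p = 1.14e-04 and 0.00265). Clone 42 differed by 0.17 and -0.31, neither of which passed.

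Krt8 was 1537, 1568 and 1663 TPM in clone 15, 1819, 1799.6 and 1895 TPM in clone 22, 2361, 2386 and 2415 TPM in clone 17 and 1904, 1937 and 1772 TPM in clone 42. Clone 17 was above all others and passed against both wild-type clones (0.59 and 0.38, limma adjusted p = 9.87e-04 and 0.018). Clone 42 overlapped clone 22. With median-of-ratios scaling neither difference of clone 17 passed (adjusted p = 0.0695 and 0.558). The second was also lost with no trend (0.0561), without any library of clone 17 (adjusted p = 0.0815 to 0.0872) or without replicate 1 or 2 of clone 22 (0.0529 and 0.0535). Clone 42 against clone 15 gave 0.23 (limma adjusted p = 0.0867), which passed without clone 22 replicate 3 (0.0129).

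Krt19 was 740.3, 729.8 and 782 TPM in clone 15 and 826, 815 and 1201 TPM in clone 22. It was 1329.5, 1389.5 and 1321 TPM in clone 17 and 1195, 1195 and 1069.7 TPM in clone 42. Replicate 3 of clone 22 was the high value of its clone and lay above all 3 libraries of clone 42. Clones 17 and 42 exceeded clone 15 by 0.84 and 0.62 (limma adjusted p = 0.00278 and 0.0125), and the second of these was lost without clone 42 replicate 1 or 2 (0.0572 and 0.0571). With median-of-ratios scaling neither passed (0.0608 and 0.145). Clone 17 exceeded clone 22 by 0.53 (limma adjusted p = 0.0417), a call lost without any library of clones 17 and 42, without clone 15 replicate 2 or 3 or without clone 22 replicate 1 or 2 (0.0583 to 0.158), or with no filter, no trend or median-of-ratios scaling (0.0681, 0.0678 and 0.446). Clone 42 against clone 22 gave 0.31 (limma adjusted p = 0.178), and 0.49 (adjusted p = 7.05e-04) without that replicate.

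Krt18, Krt20 and Vim were called in 1, 2 and 0 of the 4 pairs. Krt18 was 1610.1, 1800.2 and 1804 TPM in clone 15, 1947, 2029 and 2471 TPM in clone 22, 2365, 2340.1 and 2345 TPM in clone 17 and 1917, 2021 and 1885 TPM in clone 42. Clone 17 exceeded clone 15 by 0.44 (limma adjusted p = 0.0201), a call lost without any library of clone 17 (0.0747 to 0.0809) or without clone 15 replicate 1 (0.055), or with median-of-ratios scaling (0.27), and the other 3 pairs did not pass. Without clone 22 replicate 3, clone 17 also exceeded clone 22 in Krt18, by 0.24 (0.0398). Krt20 was 184, 199 and 238 TPM in clone 15, 242, 231 and 181 TPM in clone 22, 237, 234 and 244 TPM in clone 17 and 298, 302 and 281 TPM in clone 42. Clone 42 was above the other clones, whose libraries overlapped. It passed against clones 15 and 22 (0.51 and 0.44, limma adjusted p = 0.0227 and 0.0498). Both calls were lost without any library of clone 42 or without clone 15 replicate 2, the first also without clone 15 replicate 1 and the second without clone 22 replicate 2 or any library of clone 17, with adjusted p from 0.061 to 0.153. The second was also lost with median-of-ratios scaling (0.131), a pseudocount of 0.1, no filter, a mean of at least 5 TPM or no trend (0.0523 to 0.0805).

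Vim was 1892, 1638 and 1761 TPM in clone 15 and 2342, 2147 and 1931 TPM in clone 22. It was 1893, 2194 and 1983 TPM in clone 17 and 1821, 1802 and 1483 TPM in clone 42. Libraries of clones labelled knockout and wild type overlapped, and none of the 4 pairs passed. On clone means the difference was -0.07, with a 95% interval of -0.58 to 0.44. Without clone 22 replicate 3, clone 42 was lower than clone 22 by a difference of -0.40 (limma adjusted p = 0.0197), the only pair of Vim to pass in any setting run.

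Counted by pair, clone 17 against clone 15 called 6 of the 8 genes (10.7% of all genes, 5.18% higher) and clone 17 against clone 22 called 5 (6.49%, 3.79% higher). Clone 42 against clone 15 called 4 (12.3% of all genes, 6.07% higher) and clone 42 against clone 22 called 3 (10.3%, 5.78% higher). All members called in these pairs were higher in the clone labelled knockout. Within a label, clone 42 against clone 17 called 4, with Krt7 and Krt14 higher and Krt23 and Krt8 lower (17.2% of all genes, 8.23% higher and 8.99% lower). Clone 22 against clone 15 called 2, Krt7 and Krt14, both higher (1.92% of all genes, 0.577% higher). The call of Krt7 there was lost without any library of clones 17 and 42, without clone 15 replicate 1 or 2 or without clone 22 replicate 1 or 2 (adjusted p = 0.0622 to 0.119). That of Krt23 was gained without clone 15 replicate 2 (0.0441) or clone 22 replicate 3 (0.0341). These pairs share clones and are not independent of each other.

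**Figure D4:**
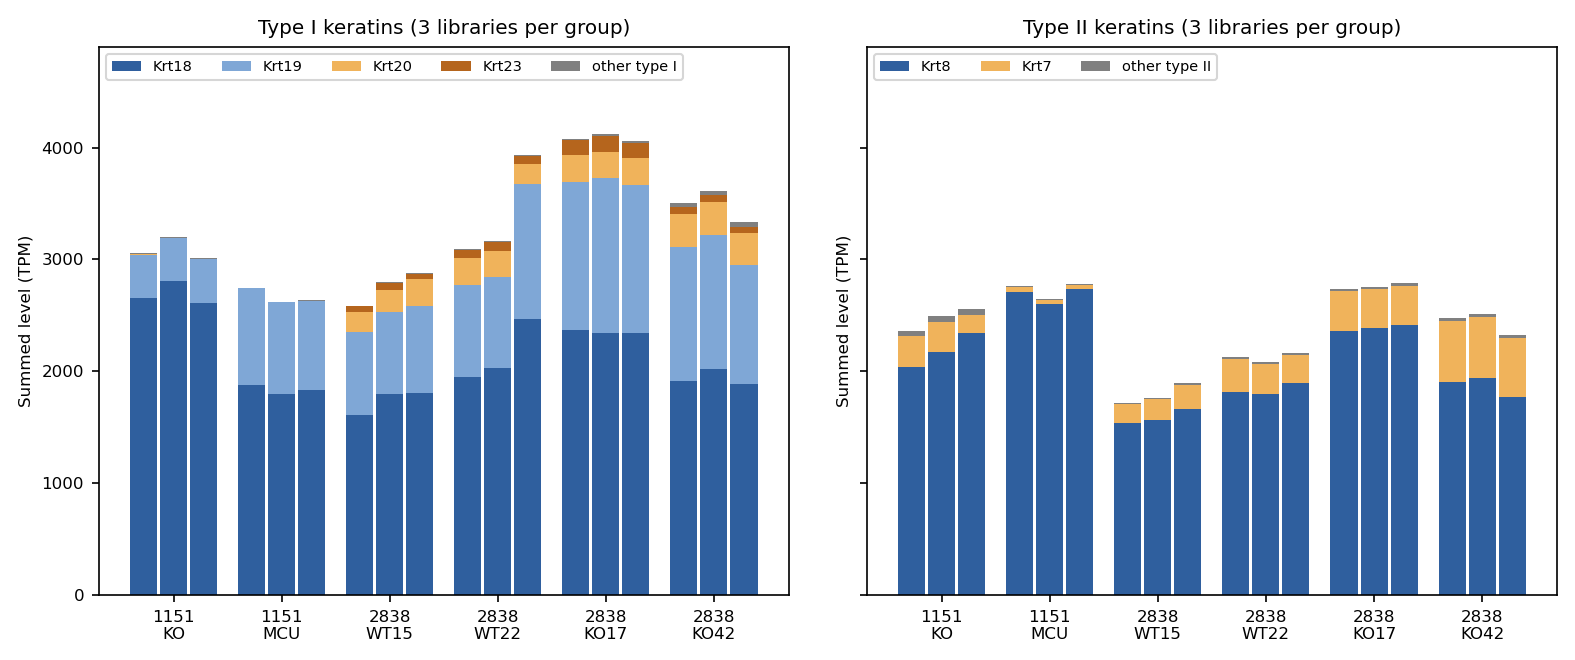
Stacked bars of keratin levels (vertical axis, summed TPM, starting at 0) in the 18 libraries, 3 bars per group, for type I (left) and type II keratins (right). Krt19 takes a smaller part of the type I bars in 1151 KO (12.5% on average) than in any other group, and Krt7 the largest part of the type II bars in clone 42 (22.3%).

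The keratin pool of 2838 was set differently from that of 1151, as the stacked bars show. Type II to type I keratin was 0.651 ± 0.0195, 0.632 ± 0.0733, 0.676 ± 0.0101 and 0.700 ± 0.00618 in clones 15, 22, 17 and 42 (SD, n = 3 each), below both 1151 groups. Krt20 and Krt23 contributed to the type I side in 2838 alone. Krt7 made up 22.3 ± 0.482% of type II keratin in clone 42 and 10.6 ± 0.827% in clone 15. The Krt8 to Krt18 ratio stayed between 0.767 and 1.03 over the 12 libraries of 2838. Vim to Krt8 was 1.11 ± 0.104 and 1.17 ± 0.136 in clones 15 and 22 and 0.848 ± 0.0631 and 0.908 ± 0.0629 in clones 17 and 42. In 1151 that ratio was 0.840 ± 0.0894 in KO and 0.688 ± 0.0313 in MCU. All 6 libraries of clones 15 and 22 were above all 6 of clones 17 and 42, while 1151 KO was above 1151 MCU in all 3 libraries.

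The lines were compared through the difference of their effects, knockout label minus control, on the 6 group means. None of the 8 genes tested was called, against 1.1% of 12458 genes, while 1738 of all genes were under an unadjusted limma p of 0.05. Among the 8 genes Krt19 came nearest to the threshold, with a difference of effects of -1.67 (SE 0.32, limma adjusted p = 0.154). Its effect was -1.10 in 1151 and 0.57 in 2838. For Krt8 the effects were -0.30 and 0.31 (limma adjusted p of the difference 0.548). Krt7 was higher with the knockout label in both lines, by 2.55 and 0.95 (limma adjusted p of the difference 0.329). With the library as the unit in place of the group, 6 of the 8 differences passed, a fit that takes libraries of a clone as independent. Krt7 and Krt18 went upward and Krt19, Krt8, Krt14 and Krt23 downward. The share of all genes that passed in this fit was not counted, so 6 of 8 cannot be set against the table as a whole. Krt14, Krt20 and Krt23 were under 1 TPM in every 1151 library and entered through 2838. Their differences of effects are therefore no comparison of the lines. Those of Krt14 (-2.27) and Krt23 (-0.44) largely restate the 2838 values (2.26 and 0.52) with the sign turned. That of Krt20 was -0.03, from 0.33 in 2838 and 0.29 in 1151, the latter from values under 1 TPM.

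Other genes of the filament system were read from lists chosen with earlier results of these data known. Of 6 other intermediate filament genes tested in 1151, 3 were called higher and 2 lower (median 0.14), and 0 of 6 met the all-pairs rule in 2838. Called in 1151 were the neuronal filament gene Prph (1.63), the stem-cell filament Nes (-0.99) and the nuclear lamins Lmnb2 (0.46) and Lmnb1 (0.24). The fifth, the neuronal Nefl, met the filter only through the group where it was high, at 0.0502, 0 and 0 TPM in 1151 KO and 2.20, 2.18 and 2.65 TPM in 1151 MCU. Of 13 genes of desmosomes, plakins and keratin-binding proteins, 5 were called higher and 3 lower in 1151 (median 0.10), and 0 of 14 met the all-pairs rule in 2838. Pkp1 and Evpl, 2 of these 8, likewise met the filter through 1 group. The desmosomal plakophilin Pkp1 was 11.1, 10.8 and 11.9 TPM in 1151 KO and 0.0657, 0.0448 and 0.120 TPM in 1151 MCU. Envoplakin Evpl was 0.644, 0.856 and 0.834 TPM and 4.27, 3.31 and 3.79 TPM. Dystonin Dst (1.11) and plectin Plec (0.68), which tie filaments to membranes and to each other, were called as well. The 8 of 13 called in 1151 stand beside 61% of all genes, and without clone 22 replicate 3, 1 of the 14 met the all-pairs rule in 2838, downward.

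Of 9 genes tested in 1151 that accompany vimentin in mesenchymal cells, 6 were called higher and 1 lower (median 0.89, against 0.05 over all genes, of which 61% were called). Fibronectin Fn1 (2.71), N-cadherin Cdh2 (2.05), Sparc (1.07), the integrin Itga5 (1.05), Cd44 (0.89) and the receptor Axl (0.89) were the 6 called higher. The calcium-binding S100a4 (-0.62) was lower, and galectin Lgals1 (-0.14) and Tagln (0.10) did not pass. In 2838, 0 of 9 met the all-pairs rule upward and 1 downward, Fn1, with a median over the list of -0.27. Without clone 22 replicate 3 the number downward was 2. Among 17 transcription factors of epithelial and mesenchymal state, 11 were called higher and 5 lower in 1151 (median 0.52), and 0 of 12 met the all-pairs rule in 2838. The epithelial factors Elf3 (-1.89) and Klf4 (-1.67) were among the lower. Of the 16 called, 3 met the filter through the group where they were high, as the other group was under 1 TPM in all 3 libraries, and so had to differ. They were Twist1, at 2.24, 2.36 and 1.55 TPM in 1151 KO and listed at 0 in 1151 MCU, Snai1, at 1.29, 1.49 and 1.41 TPM and 0.0367, 0.336 and 0.0825 TPM, and Grhl3, at 0.349, 0.119 and 0.142 TPM and 1.90, 1.18 and 1.40 TPM.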

How the data were processed

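PolyA RNA of 18 libraries was measured. The authors deposited a table of TPM values. Salmon, DESeq2 and the build mm10 are named in the submitters' processing notes. Versions and annotation are not given in the sources used here. TPM scales each library to a fixed total, so a rise in abundant genes lowers the rest. Columns summed to 998353 to 998961 TPM. Groups, replicates and batches came from the labels.

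From the deposited TPM, log2(TPM + 1) was computed and fitted with limma 3.58.1 (R 4.3.3), using its trended variance prior and p-values adjusted by Benjamini-Hochberg, with calls at 0.05. A fit took genes that 3 or more of its libraries held at 1 TPM. Fold changes on this scale understate changes of low genes. Fits used the 6 libraries of 1151, the 4 clone means of 2838, its 12 libraries, and the 6 group means, and were tested on simulated data. Replicate numbers do not pair libraries. The 9 genes and all lists were chosen with earlier results of these data known. Named were all 9 genes, other keratins reaching 1 TPM in a group, up to 6 called genes of each list, largest difference first, and the 3 genes most like each member; Krt5 and Krt16 were added for their role. Some alleles and list members are not reported here. Positions and shared 31-base words came from GENCODE M21 (mm10), promoters from RefSeq, where 7 of 9 genes matched. Ratios are means over libraries. Alternatives were another pseudocount (0.1), no filter, a mean of at least 5 TPM, other scalings, no trend, a replicate block, other units, and leaving out each library or clone.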

Additional observations from a re-analysis of the deposited data

Results flagged for a closer look

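A test of the difference between the clones labelled knockout, clone 42 minus clone 17 on log2(TPM + 1), passed for 4 of the 8 genes tested, so their differences from a shared wild-type clone were unequal. Krt14 differed by 1.29 (limma adjusted p = 0.00175) and Krt7 by 0.62 (limma adjusted p = 0.00191), both higher in clone 42 in 3 of 3 libraries. Krt23 differed by -1.18 (limma adjusted p = 1.33e-04) and Krt8 by -0.35 (limma adjusted p = 0.0115), both lower in clone 42 in 3 of 3 libraries. Of all 11795 genes, 17.2% passed this test. The Krt8 value did not pass without clone 17 replicate 2 or 3 (adjusted p = 0.0507 and 0.0542), without clone 42 replicate 3 (0.0616) or with median-of-ratios scaling (0.242). Without clone 22 replicate 3, the lower values of Krt18 and Krt19 and the higher value of Krt20 in clone 42 passed too (0.00628, 0.0153 and 0.0169). In that setting the number of all genes under an unadjusted limma p of 0.05 rose from 3495 to 5837, so the gain was not particular to these genes. Mcu RNA, at 119 TPM in clone 17 and 11.4 TPM in clone 42, differed between the same clones, and its part in these values was not tested.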

How the results depend on the processing

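Of the alternative values for single genes, 1227 kept direction and call, 99 lost the call, 26 gained it and 22 changed sign. Some settings could not change a log2 difference, so the 1227 overstate what was put to a test. Leaving out a library of a clone outside a pair, no filter, no trend and the replicate block left that difference as it was. The 22 that changed sign, log2 differences of Krt8, Krt18, Krt20, Krt23 and Vim, each had an adjusted p of at least 0.365 by limma. With median-of-ratios scaling, KO17 less WT22 became -0.0378 for Krt18 and -0.0342 for Krt20, KO42 less WT22 became -0.137 for Krt8, and the Krt20 difference of effects became 0.0331 (0.914 with a pseudocount of 0.1). Vim in 1151 became 0.0526 with quantile normalization. On clone means, Krt18 became -0.00124 without clone 15, Krt23 -0.0706 without clone 17, and Vim 0.0593 without clone 42 and 0.0713 without clone 22. Leaving out a library gave -0.0752 to 0.0149 for Vim in 1151, -0.107 to 0.0412 for Vim in KO42 less WT15, -0.000579 to 0.0637 for Krt8 in KO42 less WT22, and -0.00807 to 0.199 for Krt20 in WT22 less WT15. For the difference of effects it gave -0.150 to 0.0636 for Krt20 and -0.00805 to 0.0872 for Vim. In 1151, the 4 calls became 0 with the spread of the 6 group means in place of that between libraries, where the adjusted p was 0.106 for Krt7, 0.185 for Krt19, 0.455 for Krt18 and 0.68 for Krt8. Leaving out a library gave 3 to 4. On clone means of 2838, the count of 0 became 6 with the library as unit, and stayed 0 when any library was left out. Leaving out a clone leaves 1 clone mean in its arm, whose spread is then assumed to be that of the 2 in the other. Only log2 differences are therefore given for those fits. Without clone 17 they were 2.91 for Krt14 and 1.26 for Krt7, and without clone 42 they were 1.61 for Krt14 and 1.105 for Krt23. The all-pairs count of 2 became 0 with a pseudocount of 0.1, no filter or median-of-ratios scaling, and 1 (Krt14) with a mean of at least 5 TPM or no trend. With quantile normalization it was 2, but of Krt7 and Krt19. Leaving out a library gave 0 to 3. Differences of effects between lines went from 0 calls to 6 with 18 libraries as units, and stayed at 0 without any library. The share of all genes called was not counted in these alternative settings. In each case the cause was not tested.

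With the replicate number as a block, the 1151 count was 3 (Krt8 had an adjusted p of 0.0534) and the all-pairs count 1. The block also ended the calls of Krt19 (0.0676) and Krt7 (0.0872) in KO17 less WT22, Krt20 in KO42 less WT22 (0.0857) and Krt7 in WT22 less WT15 (0.0737). Same-numbered libraries did not deviate together (correlations of -0.146 to -0.0287 in 1151 and -0.153 to 0.196 in 2838, 0 of 3 and 4 of 18 above 0.1), so the numbers were not taken to pair libraries. Of the 24 genes found most like a member, 7 were also found without centring within lines. Depth is unknown, so no counting error can be given, which bears most on levels under 1 TPM.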

Other observations

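The genes whose pattern was most like that of each member were found by Pearson's r of log2(TPM + 1) over the 18 libraries, centred within each line, among 10578 genes. These values have no test. Libraries of a group share their source and all share the total of TPM, so r reflects mainly differences between the 6 groups. For Krt7 they were Ociad2 (0.971), Tnnt2 (0.959) and Dnajc21 (0.953), and for Krt19 S100a10 (0.954), Cystm1 (0.953) and Anxa2 (0.938). Krt8 was most like Lsr (0.939), Selenos (0.931) and Spire2 (0.925), whereas its partner Krt18 was most like Ubxn1 (0.951), Trmt112 (0.928) and Npm3 (0.927). Krt20 had Wrnip1 (0.926), Ablim1 (0.890) and U2af2 (0.883), Krt14 had Hspa12b (0.936), Uap1 (0.928) and Cryl1 (0.926), and Krt23 had Jdp2 (0.953), Sdcbp2 (0.913) and Nars (0.910). Vim had no close match, with Anxa5 (0.753), Mlkl (0.745) and Farsa (0.736).

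Between members, Krt8 followed Krt19 (r = 0.842) and Krt23 (0.792) more closely than its partner Krt18 (0.198). Krt18 followed Krt7 (0.729), and Krt14 followed Krt20 (0.705). Krt7 and Krt19, the keratin pair added in ducts, had an r of -0.377. Each r pools both lines, which differed. The log2 differences of Krt7 and Krt19 had opposite signs in 1151 (2.55 and -1.10). On clone means of 2838 both were positive (0.95 and 0.57). The same held for Krt8 and Krt18, at -0.30 and 0.55 in 1151 and 0.31 and 0.15 in 2838. None of these 2838 differences was called.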
